A study of Homo sapiens with 24 samples.

Results

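The proteasome genes described here were all protein-coding genes whose GENCODE v29 symbol consists of PSM, a letter from A to G and a number, matched by Ensembl gene ID to the count tables. The rule found 49 genes among the 57500 gene IDs of the tables. They were followed in multicellular spheroids of FaDu and SAS, established human cell lines from squamous cell carcinomas of the hypopharynx and of the tongue. Each spheroid type had 4 conditions with 3 libraries each, from experiments that the study's methods call independent: untreated control, RT (FaDu received 7 Gy and SAS received 10 Gy, each in a single dose), HT (60 min at 42.5 °C), and HT with RT directly after it, written HT + RT. Total RNA was taken 0.5 h after the end of treatment, so every value is an early transcript level and not a protein level. The radiation dose differed between the types, so their RT values stand side by side without a dose match. The 24 libraries held between 15203484 and 29452514 counts, with a median of 18378943, and the 49 genes took 0.655% of all counts. The FaDu libraries numbered 1 stood apart from those numbered 2 and 3 in every condition: the chi-square per gene between libraries of a condition was between 15.1 and 22 for the pairs with number 1 and between 3.51 and 5.09 for the pairs of 2 and 3, where 1 would be counting noise. In SAS the pairs lay between 4.61 and 11.8. Counts for FaDu are therefore also given with all libraries numbered 1 removed, a setting chosen after seeing the data.

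Both spheroid types carried the transcripts of squamous epithelium. KRT5, a keratin of basal squamous cells, was measured at 3988, 3617 and 3617 CPM (CPM are counts brought to a common library size, here scaled by TMM, the trimmed mean of M-values) in the FaDu controls and at 1253, 1139 and 1261 CPM in the SAS controls, and TP63, the squamous lineage factor, at 266, 221 and 259 CPM and 174, 181 and 243 CPM. The leukocyte markers PTPRC, CD3E, CD14 and LYZ summed to between 4.34 and 9.57 CPM over all 24 libraries, and most of that sum was CD14. PTPRC had no count in any SAS library. The endothelial markers PECAM1, VWF and CDH5 summed to between 6.17 and 8.71 CPM in FaDu and between 9.54 and 23.6 CPM in SAS, with CDH5 as the most abundant gene. Of the fibroblast markers, COL1A2, COL3A1, PDGFRB and DCN stayed under 1 CPM in every library, while COL1A1 was at 35.7, 42.8 and 47.2 CPM in FaDu controls, 1.2, 0.969 and 1.83 CPM in SAS controls and 30.5, 16.3 and 24 CPM in SAS HT. The epithelial list held 11 squamous and general epithelial markers, with KRT8, KRT18, CDH1 and EPCAM among the general ones. In FaDu 0 of them rose and 1, TP63, fell in HT against control and in HT + RT against RT (log2 fold change -0.50 and -0.40, edgeR adjusted p = 0.00449 and 0.00636). In SAS 4 rose and 1 fell in the former and 5 rose and 1 fell in the latter, with KRT6A higher by 0.85 and 0.81. The shares of all genes in these comparisons are given with each below. The study describes both spheroid types as mono-culture models. The part of COL1A1 expression or of these marker changes in any proteasome result was not tested. In such bulk libraries fewer cells of a type and less RNA per cell cannot be told apart.

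The proteasome degrades proteins that carry ubiquitin chains. Its barrel-shaped 20S core is built of outer rings of alpha subunits and inner rings of beta subunits, and the proteolytic sites sit in the beta subunits PSMB5, PSMB6 and PSMB7. Interferon-inducible PSMB8, PSMB9 and PSMB10 can take the places of PSMB5, PSMB6 and PSMB7, which gives the immunoproteasome, known for making peptides for HLA class I. The 19S cap holds ATPases that unfold substrates and non-ATPase subunits that bind and remove ubiquitin, and dedicated chaperones assemble both particles. When the proteasome is inhibited, the transcription factor NFE2L1 (NRF1), cut by the protease DDI2, raises the transcription of proteasome genes, and heat that unfolds proteins adds substrates for degradation.

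By role the 49 genes were 8 alpha-ring subunits, 7 constitutive beta-ring subunits, 4 immunoproteasome and thymus beta subunits, 6 ATPases and 11 non-ATPase subunits of the 19S cap, 3 chaperones of 19S assembly, 4 chaperones of 20S assembly, 4 activators and 1 regulator, PSMF1. The remaining gene, PSMC3IP, shares only the symbol pattern and encodes a cofactor of meiotic recombination; it is counted with the others because the rule takes it. PSMA8, the alpha subunit of the testis proteasome, had 1 count in all 24 libraries together, and PSMB11, the beta subunit of thymus epithelium, had 31, at most 8 in 1 library. Neither passed the filter on low counts in any comparison. The other 47 genes were tested in every comparison.

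The regions before the transcription starts were read for the genes that later differ between conditions or spheroid types. RefSeq start regions of GRCh38.p14, 250 bases before to 50 bases after the start, were found for 43 of the 49 genes, in 53 entries. Each was searched on both strands for short patterns: TTCNNGAA and GAANNTTC from the heat shock element, TGACNNNGC from the antioxidant response element that NFE2L1 and NFE2L2 bind, and GAAANNGAA from the site of interferon regulatory factors. TGACNNNGC stood in 15 of the 53 entries (28.3%), against 13.3% of all 35116 regions of this length. TTCNNGAA stood in 3 entries (5.66% against 7.74%), GAANNTTC in 2 (3.77% against 6.77%), and GAAANNGAA in 8 (15.1% against 8.11%). These are matches of letters, and binding was not measured. The regions of 4 genes that changed after heat and of 3 genes that differed between the spheroid types are printed below from 5′ to 3′ on the strand of the gene, with every match in capitals.
PSMD12 (chr17:67366528-67366827, minus strand): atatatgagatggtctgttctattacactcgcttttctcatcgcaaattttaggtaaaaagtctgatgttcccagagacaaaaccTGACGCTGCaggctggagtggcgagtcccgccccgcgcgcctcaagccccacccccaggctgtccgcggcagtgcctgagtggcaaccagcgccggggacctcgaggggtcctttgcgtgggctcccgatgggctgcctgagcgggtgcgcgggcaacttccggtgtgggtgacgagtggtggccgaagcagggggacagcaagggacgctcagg
PSMB2 (chr1:35641477-35641776, minus strand): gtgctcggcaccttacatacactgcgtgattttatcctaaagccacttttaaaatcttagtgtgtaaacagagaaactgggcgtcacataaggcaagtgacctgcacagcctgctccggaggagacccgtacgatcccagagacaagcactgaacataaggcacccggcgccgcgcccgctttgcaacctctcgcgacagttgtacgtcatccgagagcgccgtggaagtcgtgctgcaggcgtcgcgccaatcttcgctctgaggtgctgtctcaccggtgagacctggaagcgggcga
PSMD5 (chr9:120842873-120843172, minus strand): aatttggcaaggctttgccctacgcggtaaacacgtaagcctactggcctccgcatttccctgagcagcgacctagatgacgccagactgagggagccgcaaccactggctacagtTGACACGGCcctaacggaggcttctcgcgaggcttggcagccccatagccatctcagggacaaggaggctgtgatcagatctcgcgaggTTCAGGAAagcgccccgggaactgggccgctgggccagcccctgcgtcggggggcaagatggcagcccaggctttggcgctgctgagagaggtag
PSMD10 (chrX:108091493-108091792, minus strand): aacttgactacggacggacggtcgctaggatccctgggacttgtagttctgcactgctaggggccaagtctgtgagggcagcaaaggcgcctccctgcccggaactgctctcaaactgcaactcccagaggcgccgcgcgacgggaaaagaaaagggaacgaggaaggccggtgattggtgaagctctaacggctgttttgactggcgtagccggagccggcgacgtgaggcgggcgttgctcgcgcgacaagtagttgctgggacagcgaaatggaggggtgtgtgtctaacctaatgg
PSMB9 (chr6:32853942-32854241, plus strand): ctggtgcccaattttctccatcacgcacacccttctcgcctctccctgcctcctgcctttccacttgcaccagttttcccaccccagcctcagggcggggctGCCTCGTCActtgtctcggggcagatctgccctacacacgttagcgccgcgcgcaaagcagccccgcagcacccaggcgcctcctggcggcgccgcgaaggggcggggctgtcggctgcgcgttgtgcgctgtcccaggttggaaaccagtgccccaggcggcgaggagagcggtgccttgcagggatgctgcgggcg
PSMB10 (chr16:67936801-67937100, minus strand): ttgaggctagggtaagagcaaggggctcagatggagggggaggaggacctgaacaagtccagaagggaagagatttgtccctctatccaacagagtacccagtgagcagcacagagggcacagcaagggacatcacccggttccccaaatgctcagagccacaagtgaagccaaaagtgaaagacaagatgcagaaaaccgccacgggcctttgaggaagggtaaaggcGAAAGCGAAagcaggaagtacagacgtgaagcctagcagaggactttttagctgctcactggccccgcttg
PSMG1 (chr21:39183402-39183701, minus strand): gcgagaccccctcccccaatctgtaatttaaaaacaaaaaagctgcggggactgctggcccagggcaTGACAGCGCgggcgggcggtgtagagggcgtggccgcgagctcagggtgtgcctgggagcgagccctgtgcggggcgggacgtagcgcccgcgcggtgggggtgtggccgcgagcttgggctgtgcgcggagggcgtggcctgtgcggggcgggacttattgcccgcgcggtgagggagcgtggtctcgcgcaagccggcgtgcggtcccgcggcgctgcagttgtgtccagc
The regions of PSMB2 and PSMD10 held none of the 4 patterns. PSMD12 held 1 match to TGACNNNGC, and PSMD5, which encodes a chaperone of 19S assembly, held 1 match to TGACNNNGC and 1 to TTCNNGAA, 45 bases before its start. PSMB10 held GAAANNGAA 21 bases before its start, and PSMB9 and PSMG1 held TGACNNNGC.

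Transcript levels of the particle's subunits differed widely within each particle. Levels of different genes were compared per kilobase of the union of their exons. In FaDu controls PSMA7, an alpha-ring subunit, had the highest level at 224 ± 15.3 CPM per kilobase (SD, n = 3), followed by PSME1, an activator subunit, at 159.8 ± 9.62 and the beta-ring subunit PSMB3 at 154 ± 6.22. The levels of PSME1 and PSMB3 overlapped within their SDs. In SAS controls PSMA7 was again first at 241 ± 15.4 CPM per kilobase, and PSMB3 at 135 ± 9.22, PSME1 at 123 ± 15.3, PSMD2 at 120.2 ± 6.25 and PSMB7 at 119.8 ± 8.05 followed with levels that overlapped within their SDs. The lowest tested gene was PSMG4, a chaperone of 20S assembly, at 1.48 ± 0.0977 in FaDu and 1.33 ± 0.111 in SAS. Summed by role, the 7 constitutive beta-ring genes reached 536.7 ± 20.4 CPM per kilobase in FaDu controls and 699 ± 42.5 in SAS controls. The 8 alpha-ring genes reached 391.6 ± 27.8 and 371.6 ± 28.5, the 6 ATPases 258.7 ± 11.3 and 213 ± 9.84, the 11 non-ATPase subunits of the cap 374.9 ± 13.5 and 466.6 ± 18.1, and the 4 immunoproteasome and thymus genes 97.5 ± 3.69 and 47.8 ± 6.74. The 3 chaperones of 19S assembly reached sums of 36.7 ± 1.45 and 34.3 ± 1.04, and the 4 of 20S assembly 42.1 ± 1.31 and 57 ± 3.16. These sums run over different numbers of genes, and single chaperones such as PSMD10 and PSMG2, at 17.4 ± 1.17 and 21.6 ± 0.816 in FaDu controls, exceeded single subunits such as PSMD14 and PSMA2, at 10.5 ± 0.62 and 4.28 ± 0.347. Measured per kilobase of the longest transcript, the summed level of all 49 genes in FaDu controls was 3243 CPM per kilobase, so absolute per-kilobase levels depend on the gene model.

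**Figure D1:**
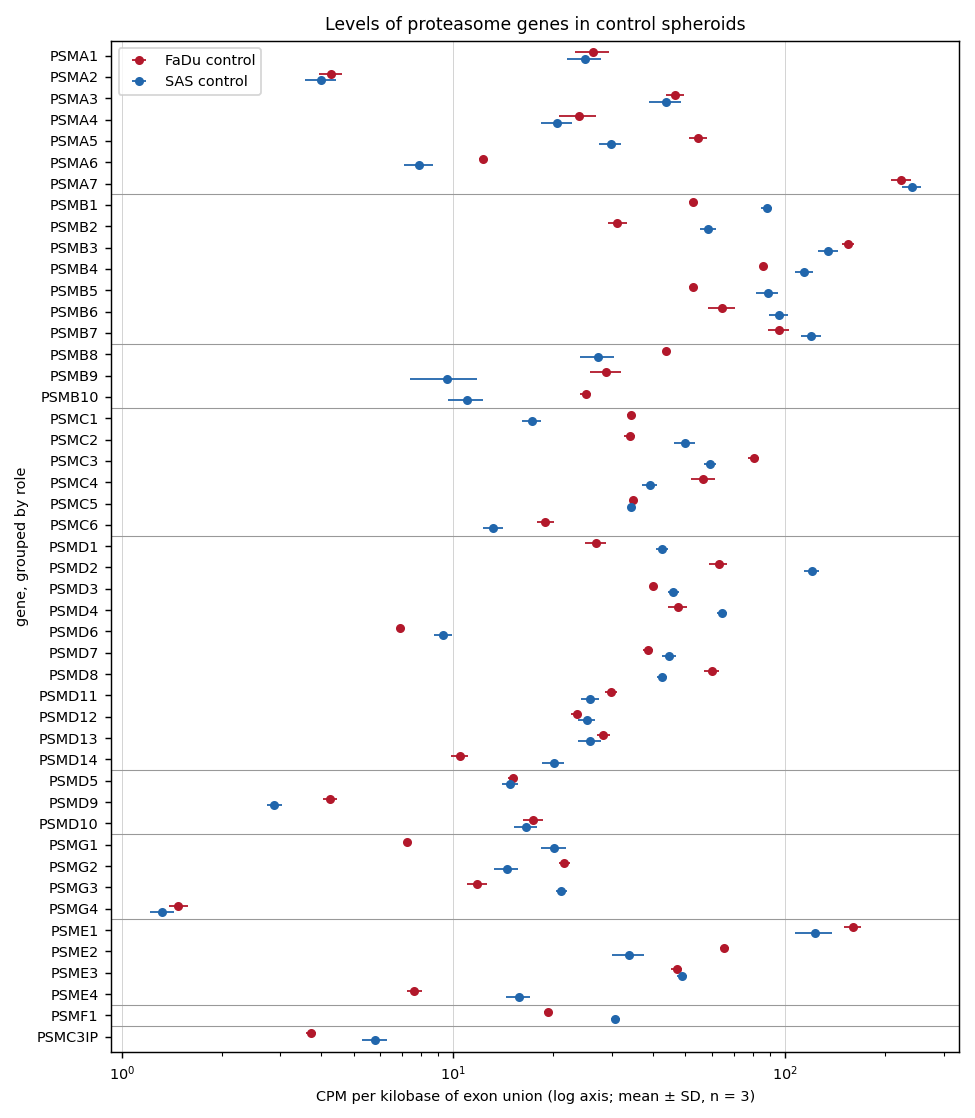
Level of each of the 47 tested genes in FaDu (red) and SAS (blue) control spheroids, in CPM per kilobase of exon union on a log axis; points are means and bars SDs of 3 libraries, and grey lines separate the roles. PSMA7 is highest in both types, and the immunoproteasome genes PSMB9 and PSMB10 lie further to the right in FaDu.

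Within 0.5 h of HT a large share of all transcripts had changed, while the changes of the proteasome genes were small in both directions. In FaDu spheroids 0 of 47 genes rose and 2 fell after HT against control, at an edgeR quasi-likelihood adjusted p under 0.05, while 7.95% of the 15879 genes tested rose and 9.69% fell. None of the 47 passed an absolute log2 fold change of 1 as well, against 4.97% of all genes. The median log2 fold change was 0.05 over the 47 genes and 0.01 over all genes tested. With library totals in place of TMM the median of the 47 turned to -0.03 and that of all genes to -0.08, so its sign rests on the scaling. That fit called 4 of the 47 genes, all lower, and 3385 of 15879 genes in all. For 45 of the 47 genes the 95% CI lay between -0.5 and 0.5, and the farthest bound of any gene was 0.57. At an unadjusted p under 0.05 the test took 8 of the 47 genes and 30.8% of all genes, and DESeq2 called 2 of the 47.

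The genes that fell in FaDu were PSMD12 and PSMB2. PSMD12 (ENSG00000197170), a scaffold subunit of the 19S lid, was at 129.8, 121 and 127 CPM in the controls and 94.1, 92.1 and 88.9 CPM after HT (log2 fold change -0.43, SE 0.057, 95% CI -0.56 to -0.31, edgeR adjusted p = 0.00139). All 3 HT libraries lay below all 3 controls. How many of all genes showed such a gap between groups, here and below, was not counted. PSMB2 (ENSG00000126067), a beta-ring subunit without a proteolytic site, was at 162, 149 and 143 CPM in the controls and 130.4, 123 and 110.2 CPM after HT (log2 fold change -0.30, SE 0.078, 95% CI -0.47 to -0.12, edgeR adjusted p = 0.0308), again without overlap. The call of PSMB2 was lost without control replicate 1, 2 or 3 or HT replicate 2 or 3, with edgeR adjusted p between 0.055 and 0.122 and log2 fold changes between -0.34 and -0.24, and the count of genes called was then 1. The spheroids that were irradiated right after HT gave a further estimate of the heat change. HT + RT against RT shares no library with HT against control, but the deviations of same-numbered libraries were correlated between these comparisons too (0.242 to 0.572 for HT + RT with HT and 0.186 to 0.526 for RT with control), so the estimates are not independent. PSMD12 was at 129, 116 and 127 CPM after RT and 93.6, 94.1 and 90.6 CPM after HT + RT (log2 fold change -0.40, SE 0.059, 95% CI -0.54 to -0.27, edgeR adjusted p = 0.0024). PSMB2 was at 157, 147 and 156 CPM and 132, 119 and 125 CPM (log2 fold change -0.27, SE 0.059, 95% CI -0.41 to -0.14, edgeR adjusted p = 0.0137), and its call was lost without RT replicate 3 or HT + RT replicate 2 or 3 (edgeR adjusted p between 0.0575 and 0.0668).

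In HT + RT against RT of FaDu, PSMD12 and PSMB2 were again the 2 genes called, both lower, and 0 of 47 were higher, against 9.37% of the 15905 genes tested higher and 9.9% lower. None passed an absolute log2 fold change of 1 (5.39% of all genes), 4 of the 47 and 32.4% of all genes had an unadjusted p under 0.05, and DESeq2 called 2 of the 47. The median was 0.00 over the 47 genes and 0.01 over all genes, and -0.09 and -0.08 with library totals alone. Without HT + RT replicate 1 the fit called 4 genes (3438 of 16485 genes in all), and 1 without RT replicate 3 or HT + RT replicate 2 or 3.

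In both FaDu heat comparisons the deviations of same-numbered libraries were correlated, and fits that took this into account called more genes. In HT against control of FaDu, blocking on the replicate number called 11 of the 47 genes, 8 higher and 3 lower, against 32.7% of all genes tested. PSMD12 and PSMB2 fell in this fit too, and PSMC6, an ATPase, was lower at -0.15 (edgeR adjusted p = 0.0353). The higher genes had small changes: PSMD4, a ubiquitin receptor of the cap, at 0.20 (edgeR adjusted p = 0.00411), PSME4, the nuclear activator PA200, at 0.18 (edgeR adjusted p = 0.0245), PSMA6 at 0.18 (edgeR adjusted p = 0.0205), PSME1 at 0.17 (edgeR adjusted p = 0.00736), PSMC1 at 0.15 (edgeR adjusted p = 0.0198), PSMB7 at 0.14 (edgeR adjusted p = 0.0293), PSMC4 at 0.14 (edgeR adjusted p = 0.0425) and PSME2 at 0.13 (edgeR adjusted p = 0.042). In HT + RT against RT of FaDu the blocked fit called 6 genes, 3 higher and 3 lower, against 31% of all genes tested. Beside PSMD12 and PSMB2 these were PSMB8, the immunoproteasome counterpart of PSMB5, lower at -0.18 (edgeR adjusted p = 0.0199), and PSME4 at 0.22 (edgeR adjusted p = 0.0296), PSMC4 at 0.15 (edgeR adjusted p = 0.0381) and PSMD14, the deubiquitinase of the cap, at 0.14 (edgeR adjusted p = 0.0494), all higher. With all FaDu libraries numbered 1 removed, HT against control called 9 genes, 7 higher and 2 lower, against 28.7% of all genes tested, and each of the 9 was also called with the block. In that setting HT + RT against RT called 5 genes, 1 higher and 4 lower, against 31.6% of all genes. PSMD12 was at -0.42 and -0.39 and PSMB2 at -0.29 and -0.30 (edgeR adjusted p between 8.63e-06 and 0.001).

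In SAS spheroids 2 genes rose and 1 fell after HT against control, where 12.2% of the 15000 genes tested rose and 11.4% fell. PSMD5 (ENSG00000095261) was at 61.7, 69 and 66.7 CPM in the controls and 50.5, 49 and 52.2 CPM after HT (log2 fold change -0.35, SE 0.071, 95% CI -0.50 to -0.19, edgeR adjusted p = 0.00401), with no overlap between the groups. PSMD14 was at 165, 156 and 142 CPM and 174, 171 and 174 CPM (log2 fold change 0.20, SE 0.062, 95% CI 0.06 to 0.33, edgeR adjusted p = 0.038), and PSMB1, a beta-ring subunit, at 206, 198 and 189.9 CPM and 208, 219 and 224 CPM (log2 fold change 0.16, SE 0.055, 95% CI 0.04 to 0.28, edgeR adjusted p = 0.0494). For PSMD14 and PSMB1 the groups lay apart by a narrow gap. The calls of PSMD14 and PSMB1 ended with DESeq2 (adjusted p = 0.0692 and 0.110) and with library totals alone (edgeR adjusted p = 0.192 and 0.279), where the fold changes stayed positive and the split was 0 higher and 4 lower (4215 of 15000 genes in all). PSMB1 also lost its call without a filter on low counts (edgeR adjusted p = 0.121). PSMB1 lost it without any 1 of control replicates 1, 2 and 3 or HT replicates 1, 2 and 3 (edgeR adjusted p between 0.0618 and 0.13), and PSMD14 without control replicate 2 or 3 or HT replicate 1, 2 or 3 (between 0.0709 and 0.118). No gene passed an absolute log2 fold change of 1, against 6.03% of all genes. The count was 1 without control replicate 2 or 3 or HT replicate 1 or 2. Other settings called more: 5 genes, 4 higher and 1 lower, with at least 10 counts in every library (3078 of 13606 genes in all), 7, 4 higher and 3 lower, with the replicate block (4413 of 15000), and 7, 5 higher and 2 lower, with all 4 groups in the fit (4084 of 15833). The median was 0.06 over the 47 genes, 0.00 over all genes, and -0.02 and -0.08 with library totals alone. The 95% CI lay between -0.5 and 0.5 for 45 of the 47 genes.

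In HT + RT against RT of SAS, which shares no library with the comparison before, 2 genes were higher and 2 lower, against 14.1% and 13.8% of the 15125 genes tested, and none passed an absolute log2 fold change of 1 (6.6% of all genes). The deviations of same-numbered SAS libraries were correlated between these comparisons too (0.165 to 0.295 for HT + RT with HT and 0.163 to 0.272 for RT with control). The SAS estimates are therefore not independent either. PSMD5 was at 66.2, 68.2 and 69 CPM after RT and 51.8, 54.7 and 52 CPM after HT + RT (log2 fold change -0.32, SE 0.059, 95% CI -0.45 to -0.19, edgeR adjusted p = 0.00185). PSME3, the nuclear activator subunit PA28 gamma, was at 263, 266 and 263 CPM and 215, 221 and 208 CPM (log2 fold change -0.26, SE 0.049, 95% CI -0.36 to -0.15, edgeR adjusted p = 0.00227). In HT against control its log2 fold change was -0.16 (edgeR adjusted p = 0.052), short of the threshold, which it passed with library totals alone, the replicate block and all 4 groups in the fit. PSMD10, the 19S chaperone also called gankyrin, was at 43, 37.5 and 39.1 CPM and 49.8, 45.2 and 47.6 CPM (log2 fold change 0.29, SE 0.077, 95% CI 0.12 to 0.46, edgeR adjusted p = 0.0146). PSMD12 was at 132, 132 and 135 CPM and 139.7, 146 and 145 CPM (log2 fold change 0.15, SE 0.051, 95% CI 0.04 to 0.26, edgeR adjusted p = 0.0466). In all 4 genes the 3 libraries of one group lay apart from the 3 of the other. These genes were picked by the test on the same values, so the gap adds no separate evidence. The call of PSMD10 ended with library totals alone (edgeR adjusted p = 0.0505) and without RT replicate 2 (0.0582) or HT + RT replicate 1 (0.0638), where 2 genes were called. Library totals alone gave a split of 0 higher and 5 lower (4869 of 15125 genes in all). The call of PSMD12 ended with DESeq2 (adjusted p = 0.118), library totals alone (0.306), no filter on low counts (0.206), and without RT replicate 1, 2 or 3 or HT + RT replicate 1, 2 or 3 (0.0737 to 0.119).

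With the replicate number as a block, HT + RT against RT of SAS called 14 of the 47 genes, 10 higher and 4 lower, against 38.9% of all genes tested. The lower genes were PSMD5, PSME3, PSME4 at -0.16 (edgeR adjusted p = 0.0259) and PSMB2 at -0.13 (edgeR adjusted p = 0.0109). PSMD10 at 0.29 (edgeR adjusted p = 0.00112) and PSMA2 at 0.22 (edgeR adjusted p = 0.0444) had the largest changes among the higher genes, and the other 8 lay between 0.11 and 0.17: PSMB3, PSMB4, PSMB7, PSMC4, PSMD12, PSMD13, PSMD14 and PSME1. The median over the 47 genes was 0.05 in this comparison, 0.00 over all genes, and -0.03 and -0.07 with library totals alone.

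**Figure D2:**
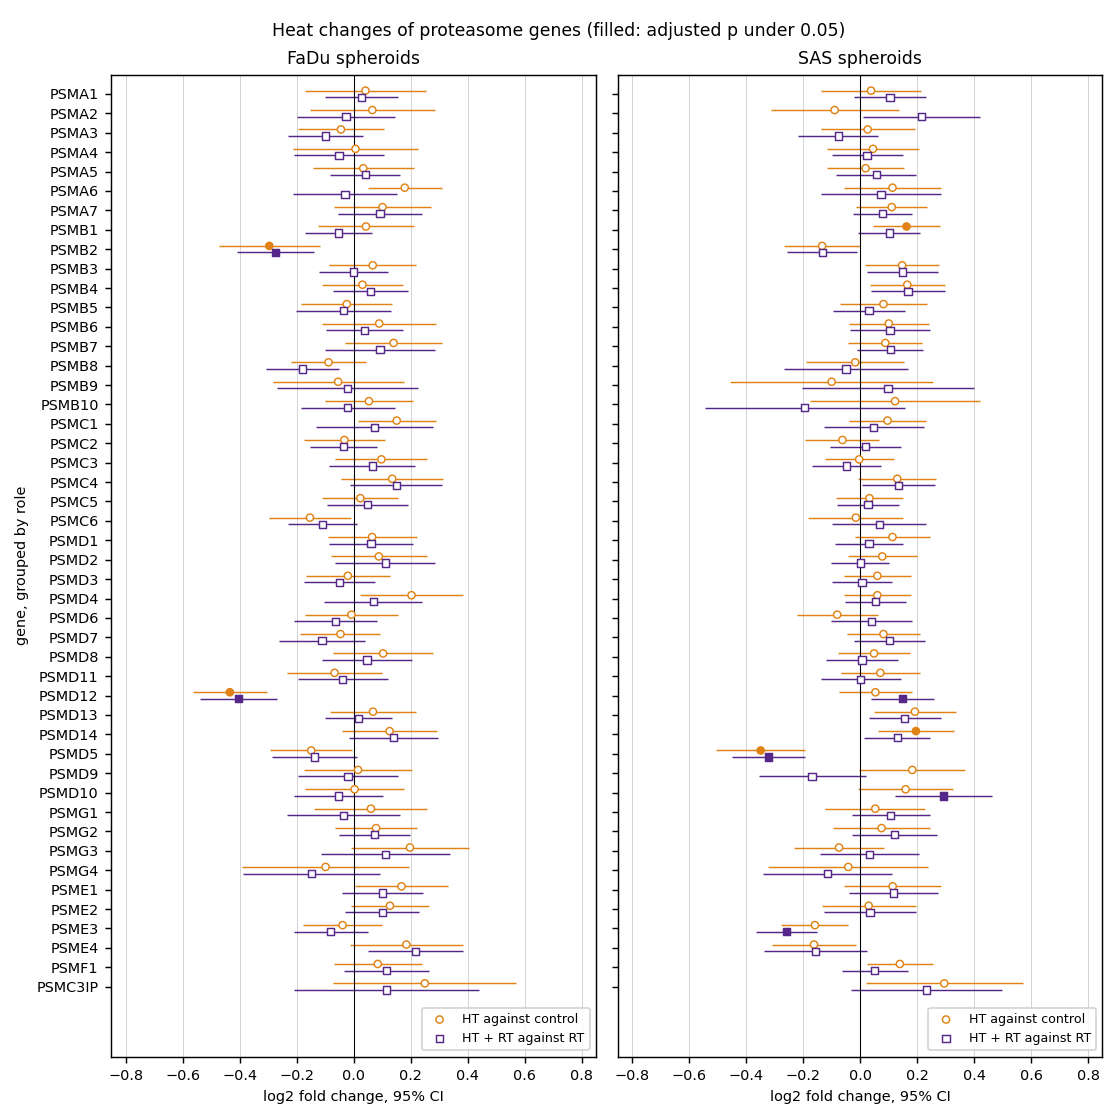
Log2 fold change with heat of the 47 tested genes in FaDu (left) and SAS (right) spheroids; circles show HT against control, squares HT + RT against RT, bars the 95% CI, and filled symbols an edgeR adjusted p under 0.05. Most intervals cross 0, PSMD12 and PSMB2 stand to the left in both FaDu estimates (PSMD12 at -0.43 and -0.40), and PSMD5 in both SAS estimates (-0.35 and -0.32).

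None of the 6 catalytic subunits was called after heat by the edgeR test with TMM scaling on the groups compared, in either spheroid type or either estimate; DESeq2 called none either. For PSMB5, the chymotrypsin-like site, the log2 fold changes were -0.02 and -0.04 in FaDu and 0.08 and 0.03 in SAS. The values of PSMB6 were 0.09, 0.04, 0.10 and 0.10, and those of PSMB7 0.14, 0.09, 0.09 and 0.11. PSMB7 passed the threshold with the replicate block in FaDu HT (0.14, edgeR adjusted p = 0.0293) and irradiated SAS (0.11, 0.0463) and in FaDu HT with all libraries numbered 1 removed (0.16, 0.0389). The immunoproteasome subunits PSMB8, PSMB9 and PSMB10 ranged from -0.19 for PSMB10 in irradiated SAS to 0.12 for PSMB10 in SAS HT. PSMB8 in irradiated FaDu came closest to the threshold (log2 fold change -0.18, SE 0.056, 95% CI -0.31 to -0.05, edgeR adjusted p = 0.058), and it passed with the replicate block at -0.18 (edgeR adjusted p = 0.0199), with library totals alone (-0.27, edgeR adjusted p = 0.00657), with all 4 groups in the fit (-0.18, 0.0248), without HT + RT replicate 1 (-0.22, 0.0276) and with all libraries numbered 1 removed (-0.22, 0.00466).

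Among genes that supply ubiquitin or deliver substrates, UBB and ZFAND2A passed a log2 fold change of 1 in all 4 heat estimates. UBB, a polyubiquitin gene, was at 418, 385 and 382 CPM in FaDu controls and 900.1, 871 and 897 CPM after HT (log2 fold change 1.19, SE 0.066, 95% CI 1.04 to 1.34, edgeR adjusted p = 1.11e-05), and at 582, 490.0 and 472 CPM in SAS controls and 1295, 1310.1 and 1521 CPM after HT (log2 fold change 1.45, SE 0.081, 95% CI 1.27 to 1.63, edgeR adjusted p = 1.24e-07). In HT + RT against RT it was at 1.20 in FaDu and 1.51 in SAS (edgeR adjusted p = 7.82e-06 and 1.18e-08). Against the shares of all genes given above for the 4 heat comparisons (between 7.95% and 14.1% higher and between 9.69% and 13.8% lower), of 4 genes of ubiquitin supply, 1 rose and 0 fell in both FaDu estimates, and 2 rose and 0 fell in both SAS estimates, the other being RPS27A at 0.20 and 0.24. Among 12 genes for shuttle factors and the VCP unfoldase, ZFAND2A, an arsenite- and heat-inducible protein that binds the proteasome, went from 4.09, 3.97 and 4.66 CPM to 70.7, 61.8 and 95.1 CPM in FaDu (log2 fold change 4.18, SE 0.185, 95% CI 3.76 to 4.60, edgeR adjusted p = 2.59e-06) and from 19, 14.1 and 15.3 CPM to 133, 178 and 188 CPM in SAS (log2 fold change 3.40, SE 0.135, 95% CI 3.10 to 3.69, edgeR adjusted p = 5.81e-09). Of the 11 tested genes of this list, 2 rose and 0 fell after HT against control in either type, and in HT + RT against RT 1 rose and 1 fell in FaDu and 2 rose and 3 fell in SAS. VCP itself fell in irradiated spheroids, by 0.19 in FaDu and by 0.20 in SAS on the log2 scale (edgeR adjusted p = 0.0447 and 0.0325). The 8 heat shock genes, taken as positive controls, rose in all 4 estimates, with median log2 fold changes between 3.19 and 3.67.

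**Figure D3:**
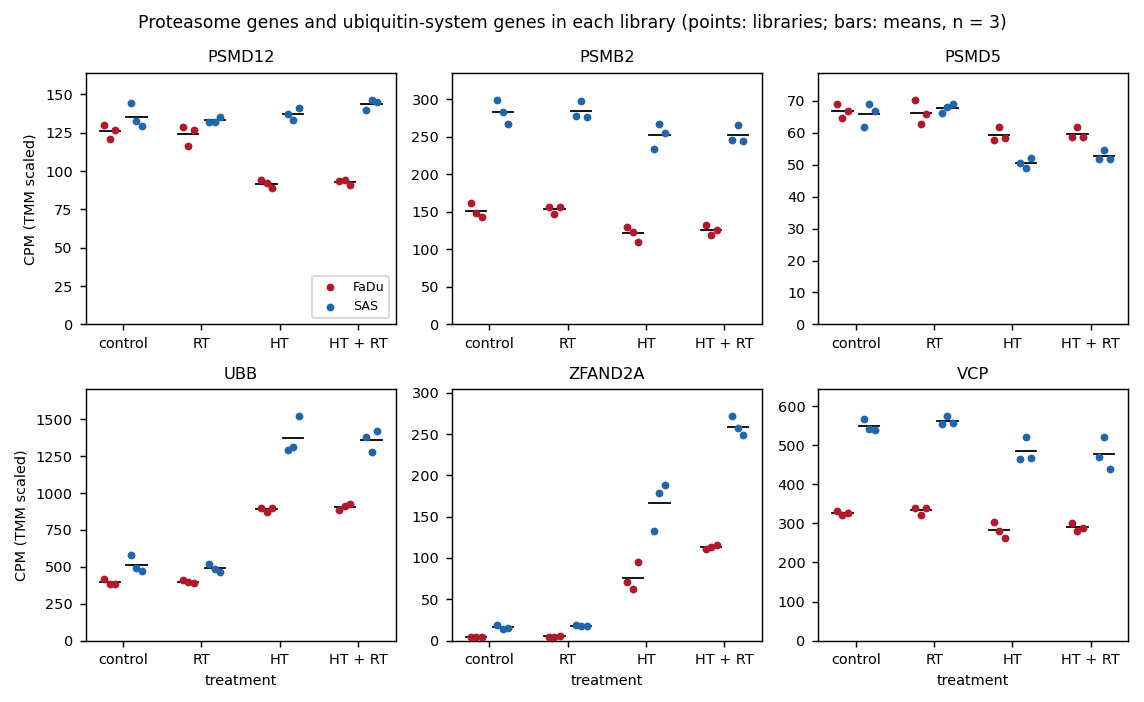
CPM of PSMD12, PSMB2 and PSMD5 (top) and of UBB, ZFAND2A and VCP (bottom) in each of the 24 libraries, FaDu in red and SAS in blue, with black bars for the means of 3. PSMD12 in FaDu lies between 116 and 129.8 CPM without heat and between 88.9 and 94.1 CPM with it, while ZFAND2A lies at 61.8 CPM or more in every heated library.

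The genes of the NFE2L1 axis and those that associate with the proteasome were read against the shares of all genes: 7.95% rose and 9.69% fell in FaDu HT, 12.2% and 11.4% in SAS HT, 9.37% and 9.9% in irradiated FaDu, and 14.1% and 13.8% in irradiated SAS. DDI2, the protease that activates NFE2L1, was at 50.01, 48.8 and 53.6 CPM in FaDu controls and 27.2, 36.1 and 41.4 CPM after HT (log2 fold change -0.51, SE 0.141, 95% CI -0.83 to -0.19, edgeR adjusted p = 0.0362), and in SAS it fell by 0.49 on the log2 scale (edgeR adjusted p = 0.000317). NFE2L1 fell in SAS after HT, from 277, 273 and 296 CPM to 209.8, 220.5 and 207 CPM (log2 fold change -0.38, SE 0.058, 95% CI -0.50 to -0.25, edgeR adjusted p = 0.00062). In FaDu HT its log2 fold change was -0.22 (edgeR adjusted p = 0.0525), and in FaDu HT + RT against RT -0.24 (0.0363). MAFF and MAFK, small partners of these factors, rose, MAFF by 2.94 in FaDu and 1.61 in SAS. The largest rise of the list in SAS HT was 2.25, above that of MAFF. Of the 13 tested genes of the list, 2 rose and 2 fell in FaDu HT, 4 rose and 4 fell in SAS HT, 2 rose and 3 fell in irradiated FaDu, and 5 rose and 4 fell in irradiated SAS. For HT, a test of the difference between the types called 2 of the 13 higher in FaDu and 1 lower, against 5.55% of all genes. For heat in irradiated spheroids it called 2 higher and 2 lower, against 7.59%. Among 15 proteasome-associated genes outside the symbol rule, 0 rose and 2 fell in both FaDu estimates, 1 rose and 3 fell in SAS HT, and 1 rose and 4 fell in irradiated SAS. In lists of this length such counts lie near the shares of all genes in several comparisons, and no list was tested as a set. PITHD1, a proteasome-binding protein, fell in all 4 estimates, with log2 fold changes of -0.31 and -0.33 in FaDu and -0.25 and -0.21 in SAS. AKIRIN2, which brings proteasomes into the nucleus, fell in FaDu (-0.45 and -0.48) and was at -0.06 and 0.03 in SAS, short of the threshold. A test of the difference between the types called 0 of the 15 proteasome-associated genes for HT, AKIRIN2 included. For heat in irradiated spheroids it called 1 of the 15, lower in FaDu, where the log2 differences of the 15 lay between -0.53 and 0.22. Over all genes it called 5.55% and 7.59%.

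RT alone moved no proteasome gene past the threshold. In RT against control edgeR called 0 of 47 genes in FaDu and 0 in SAS, where 0.0322% of the 15552 genes and 0.0749% of the 14680 genes tested were called. At an unadjusted p under 0.05 there were 0 of the 47 genes in FaDu and 1 in SAS, against 5.09% and 5.68% of all genes, and DESeq2 called 0 in both. In both types the deviations of same-numbered libraries were correlated; with the replicate block 0 of 47 genes were called in either type, against 2.01% of all genes in FaDu and 1.96% in SAS, and 0 and 2 had an unadjusted p under 0.05, against 10.5% and 11.8% of all genes. In FaDu the 47 log2 fold changes lay between -0.09 and 0.05 with all 95% CIs between -0.5 and 0.5, and in SAS between -0.13 and 0.23 with 46 of 47 CIs inside these bounds. RT added to HT gave the same count: in HT + RT against HT edgeR called 0 of 47 genes in both types, and 0% of the 16145 genes tested in FaDu and 0% of 15341 in SAS. At an unadjusted p under 0.05 there was 1 of the 47 genes in each type, against 2.24% of all genes in FaDu and 4.39% in SAS, and DESeq2 called 0. With the block 0 were again called, against 0.954% of all genes in FaDu and 0.906% in SAS, while 7 of the 47 genes in FaDu and 6 in SAS had an unadjusted p under 0.05, against 9.01% and 9.93% of all genes. The log2 fold changes of that comparison had -0.18 and 0.04 as their extremes in FaDu, and -0.16 and 0.23 in SAS.

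HT + RT against control shares its controls with HT against control, so its values are given only side by side. In FaDu 2 of 47 genes were called, both lower, against 19.3% of the 15896 genes tested in either direction: PSMD12 (log2 fold change -0.42, SE 0.056, 95% CI -0.55 to -0.29, edgeR adjusted p = 0.00111) and PSMB2 (log2 fold change -0.25, SE 0.070, 95% CI -0.41 to -0.09, edgeR adjusted p = 0.0363). With the replicate block 5 were called, against 32.9% of all genes, and with library totals alone 7, all lower (3923 of 15896 genes in all). With all libraries numbered 1 removed 8 were called, 1 higher and 7 lower, against 31.7% of all genes. PSMB5 and PSMB8 were among these lower genes (both -0.20, edgeR adjusted p = 0.0127 and 0.00881). In SAS 4 were called, 2 higher and 2 lower, against 25.1% of 14938 genes: PSMD5 at -0.27, PSME3 at -0.18, PSMD10 at 0.28 and PSMC3IP, the recombination cofactor, at 0.36 (edgeR adjusted p = 0.036). PSMC3IP was not called with DESeq2, with library totals alone, or without control replicate 1 or 3 or HT + RT replicate 1, 2 or 3. With the replicate block 10 were called, against 35.5% of all genes, and library totals alone gave 0 higher and 3 lower (4580 of 14938 genes in all). The SAS count was 0 without HT + RT replicate 1 or 3, 1 without control replicate 2 and 2 without control replicate 3. The FaDu count was 1 without control replicate 1 or 2 or HT + RT replicate 2 or 3.

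Between the spheroid types the proteasome genes were called about as often as all genes. In FaDu against SAS controls 17 of the 47 genes were higher and 19 lower in FaDu, where 38.6% of the 15810 genes tested were higher and 36.4% lower. Past an absolute log2 fold change of 1 there were 5 genes, against 38.1% of all genes. The median was 0.05 over the 47 genes, with a median absolute value of 0.53, against 0.03 and 0.72 over all genes. Library totals alone moved the median of all genes to 0.20 and the split to 26 higher and 16 lower (11910 of 15810 genes in all), so the balance of directions rests on the scaling. By role, a description without a test, 6 of the 7 constitutive beta-ring genes were lower in FaDu and 1, PSMB3, higher, while all 3 tested immunoproteasome genes were higher. Of the 7 tested alpha-ring genes 3 were higher and 0 lower, of the 6 ATPases 4 higher and 1 lower, and of the 11 non-ATPase cap subunits 2 higher and 7 lower. With library totals alone the beta ring had 1 higher and 5 lower, the immunoproteasome genes 3 and 0, the alpha ring 6 and 0, the ATPases 5 and 1, and the non-ATPase cap subunits 3 and 5. Without SAS control replicate 2 or 3 the calls of PSMB3 and of PSMA4, an alpha-ring gene, ended. PSMA4 also lost its call with DESeq2 and without FaDu control replicate 1. Among the lower cap subunits, PSMD3 and PSMD7 lost theirs without FaDu control replicate 3 or SAS control replicate 1.

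The 5 genes past the fold limit were PSMB9, PSMB10 and PSMC1, higher in FaDu, and PSMG1 and PSME4, lower. PSMC1 and PSME4 lay close to the limit. With all FaDu libraries numbered 1 removed PSMC1 was at 1.0017 and PSME4 at -0.97, no longer past it. PSMB9 was at 99.7, 82.2 and 84.2 CPM in FaDu and 36.5, 28.7 and 23.2 CPM in SAS (log2 fold change 1.62, SE 0.141, 95% CI 1.31 to 1.93, edgeR adjusted p = 1.5e-06). PSMB10 was at 48.3, 45.9 and 44.9 CPM and 23.2, 19 and 18.7 CPM (log2 fold change 1.22, SE 0.095, 95% CI 1.01 to 1.43, edgeR adjusted p = 6.55e-07). PSMC1, an ATPase, was at 216, 207 and 208 CPM and 114, 101 and 104 CPM (log2 fold change 1.02, SE 0.065, 95% CI 0.87 to 1.16, edgeR adjusted p = 1.45e-07); its pseudogene PSMC1P1 was higher in FaDu as well (log2 fold change 0.78, edgeR adjusted p = 0.00334), and reads of near-identical copies could have been split between them. PSMG1, a chaperone that starts the alpha ring, was at 18.7, 17.8 and 18.2 CPM and 54.6, 50.7 and 45.9 CPM (log2 fold change -1.44, SE 0.086, 95% CI -1.63 to -1.25, edgeR adjusted p = 8.28e-08), and its partner PSMG2 was higher in FaDu (log2 fold change 0.61, edgeR adjusted p = 3.33e-05). PSME4 was at 74.2, 82.4 and 77.8 CPM and 161, 148 and 175 CPM (log2 fold change -1.01, SE 0.078, 95% CI -1.18 to -0.84, edgeR adjusted p = 5.7e-07). None of these groups overlapped, in genes picked for their large changes on the same values. Below the limit, PSME2, the interferon-inducible activator subunit, was higher in FaDu at 0.99 and PSMA5 at 0.91, and PSMD14 at -0.91, PSMD2 at -0.90 and PSMB2 at -0.87 were lower (edgeR adjusted p between 5.36e-07 and 1.13e-06).

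**Figure D4:**
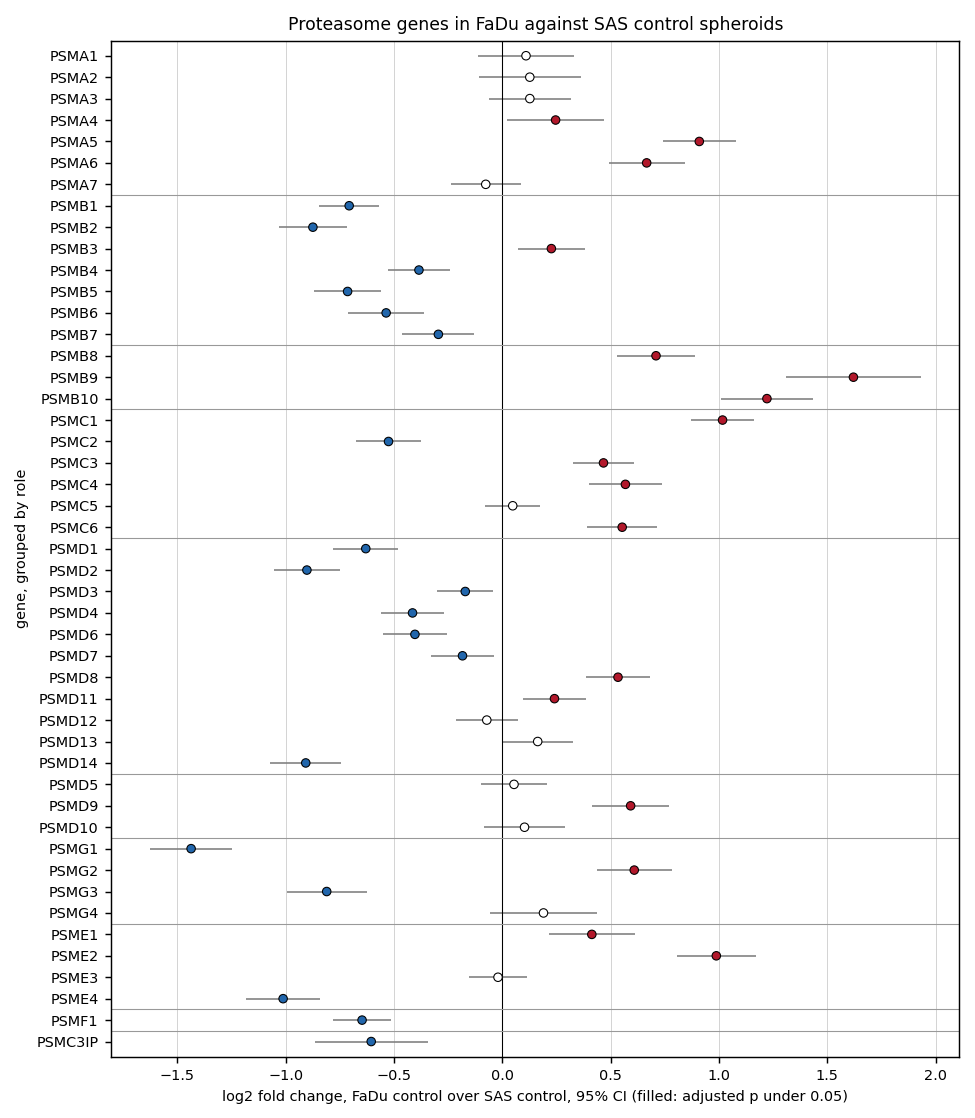
Log2 fold change of the 47 tested genes between FaDu and SAS control spheroids with 95% CIs; filled red points are higher in FaDu and filled blue points lower at an edgeR adjusted p under 0.05, and grey lines separate the roles. The immunoproteasome genes lie at 0.71 to 1.62, and PSMB1, PSMB2, PSMB4, PSMB5, PSMB6 and PSMB7 at -0.87 to -0.30.

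The constitutive catalytic subunits were lower in FaDu and their immunoproteasome counterparts higher, with TMM scaling. PSMB5 was at 90.3, 94 and 95.2 CPM in FaDu controls and 167, 158 and 143 CPM in SAS controls (log2 fold change -0.71, SE 0.070, 95% CI -0.87 to -0.56, edgeR adjusted p = 4.05e-06), and its immunoproteasome counterpart PSMB8 at 129.5, 129.9 and 133 CPM and 92.3, 79.6 and 73.2 CPM (log2 fold change 0.71, SE 0.082, 95% CI 0.53 to 0.89, edgeR adjusted p = 1.43e-05). PSMB6 and PSMB7 were lower in FaDu at -0.54 and -0.30 (edgeR adjusted p = 0.000101 and 0.00428); PSMB7 lost its call with library totals alone (-0.13, edgeR adjusted p = 0.118). Per kilobase, PSMB8 made up 45.8, 44.9 and 45.1% of the sum of PSMB8 and PSMB5 in the FaDu controls and 24.5, 22.9 and 23.1% in the SAS controls. PSMB9 made up 31.3, 30.6 and 30.8% of its pair with PSMB6 in FaDu and 10.4, 9.33 and 7.47% in SAS, and PSMB10 20.1, 21.1 and 21.1% of its pair with PSMB7 in FaDu and 9.03, 7.74 and 8.35% in SAS. The size of these shares depends on the gene model. In FaDu controls PSMB9 and PSMB6 were at 28.9 and 64.5 CPM per kilobase of exon union. Per kilobase of the longest transcript they were at 33.2 and 107.2 CPM. Under every treatment each immunoproteasome share was higher in FaDu than in SAS. In all 12 FaDu libraries the PSMB8 share lay between 43 and 47.3% and in all 12 SAS libraries between 20.3 and 26.1%, as a description without a test.

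**Figure D5:**
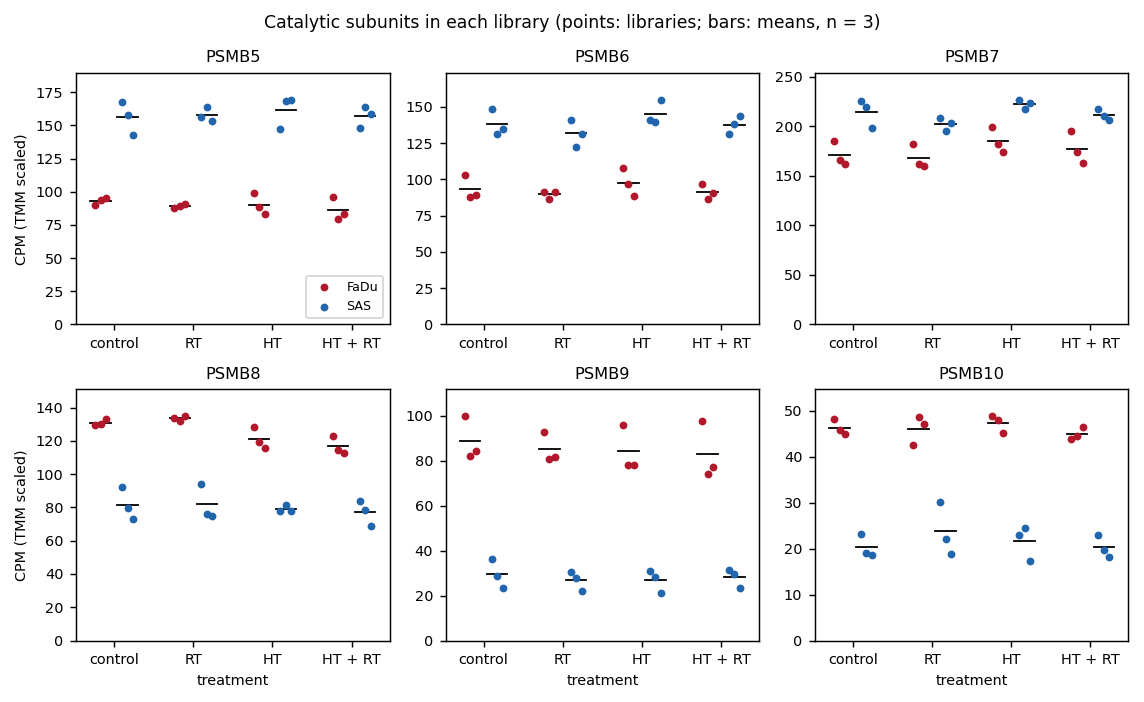
CPM of the constitutive catalytic subunits PSMB5, PSMB6 and PSMB7 (top) and their immunoproteasome counterparts PSMB8, PSMB9 and PSMB10 (bottom) in each of the 24 libraries, FaDu in red and SAS in blue, with black bars for the means of 3. SAS lies above FaDu in the top row and FaDu above SAS in the bottom row under every treatment.

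The sign of the difference was the same in all 4 treatments for 42 of the 47 genes, by the log2 ratio of group means, a comparison chosen after the data were seen. FaDu was the higher type for 25 genes in controls, 23 after RT, 25 after HT and 24 after HT + RT. The widest range over the treatments was that of PSMD12, from -0.10 in both unheated conditions to -0.58 after HT and -0.63 after HT + RT, followed by PSME4, from -1.11 after RT to -0.69 after HT. Antigen-processing and interferon genes stood in the same direction as the immunoproteasome: 14 of 16 were higher in FaDu controls and 0 lower, with a median log2 fold change of 2.41. TAP1, the peptide transporter encoded next to PSMB9, was at 1.89, HLA-B at 3.53 and the class I transactivator NLRC5 at 2.93 (edgeR adjusted p between 4.47e-10 and 1.13e-07). IRF1 was at -0.06 and TAP2 at 0.03, and neither was called. Among proteasome-associated genes 2 of 15 were higher and 9 lower in FaDu: the 20S maturation factor POMP at -0.91, the 19S chaperone PAAF1 at -2.12 and the deubiquitinase UCHL5 at -1.86 were lower. All genes had 38.6% higher and 36.4% lower in this comparison. Of the other lists, 0 of 4 ubiquitin supply genes were higher and 3 lower, 2 of 11 shuttle and unfoldase genes higher and 7 lower, 3 of 13 NFE2L1-axis genes higher and 6 lower, and 1 of 8 heat shock genes higher and 4 lower.

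Whether heat acted differently in the types was tested by the interaction. For HT it called 1 of 47 genes, PSMD12, against 5.55% of the 17219 genes tested, and for heat in irradiated spheroids it called 2, PSMD12 and PSMD10, against 7.59% of 17376 genes. The heat change of PSMD12 was lower in FaDu than in SAS by a log2 difference of -0.46 for HT (95% CI -0.64 to -0.28, edgeR adjusted p = 0.00381) and of -0.57 in irradiated spheroids (95% CI -0.74 to -0.41, edgeR adjusted p = 0.000332). PSMD12 in SAS was at 144, 132 and 129 CPM in controls and 137, 133 and 141 CPM after HT, and these groups overlapped. The call of PSMD12 held in both interactions under every alternative other than the 2-fold limit, and without any 1 library. Without FaDu HT replicate 1 the interaction for HT called 2 genes (1170 of 17777 genes in all). For PSMD10 the difference was -0.37 (95% CI -0.59 to -0.14, edgeR adjusted p = 0.0447). In FaDu PSMD10 was at 41.3, 39.1 and 43.2 CPM after RT and 37.7, 39.6 and 40.6 CPM after HT + RT. That call ended with DESeq2 (adjusted p = 0.0549), RLE size factors (edgeR adjusted p = 0.0715), no filter on low counts (0.213) and at least 10 counts in every library (0.0651). It also ended without FaDu RT replicate 1, 2 or 3, FaDu HT + RT replicate 1, 2 or 3, SAS RT replicate 2 or 3, or SAS HT + RT replicate 1 or 3 (0.0711 to 0.179), and with all FaDu libraries numbered 1 removed (0.0816). PSME4, the nuclear activator PA200, had log2 differences of 0.38 for HT and 0.35 in irradiated spheroids and was not called in either (edgeR adjusted p = 0.0767 and 0.0979). With the replicate block it was called in both, at 0.37 (edgeR adjusted p = 0.00505) and 0.35 (edgeR adjusted p = 0.0152), beside PSMD12 and, in irradiated spheroids, PSMD10, against 11% and 13.6% of all genes tested. It was also called in both with all FaDu libraries numbered 1 removed. In both interactions the deviations from group means correlated over 0.1 in every same-numbered FaDu pair, but not in every SAS pair. PSMB2 was called in FaDu and PSMD5 in SAS by the main fits of the heat comparisons, while library totals alone called both genes in both types, and for neither did the interaction pass: -0.13 for PSMB2 (edgeR adjusted p = 0.61) and 0.23 for PSMD5 (0.2) after HT.

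The tables also held 37 noncoding or pseudogene entries named after these genes, 32 of them pseudogenes. Together they had 24782 counts, 0.82% of the 3021713 counts of the 49 genes, and 16002 of them were on PSMA3-AS1. PSMB8-AS1, antisense to PSMB8, fell after HT in FaDu (log2 fold change -0.35, edgeR adjusted p = 0.0444) and was higher in FaDu than in SAS controls (1.54, edgeR adjusted p = 2.44e-06). The strand setting of the counting is not given in the sources used here, so reads of PSMB8 and PSMA3 cannot be told apart from those of their antisense partners.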

How the data were processed

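Total RNA of FaDu and SAS spheroids was measured as gene counts in 24 libraries. Directional libraries were made and run on an Illumina NovaSeq by a company, base calls were converted with bcl2fastq, and the authors deposited raw counts per Ensembl gene ID; aligner, counting program, strand setting and annotation are not given in the sources used here. The submitters' processing notes list mm9, a mouse build, although the IDs are human. The deposited normalized tables were not used here. Of the 57500 IDs, 56898 matched GENCODE v29 and 602, with 0.0217% of counts, did not. Library totals were between 15203484 and 29452514, and no pair of replicates agreed within counting noise (lowest chi-square per gene 3.51).

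Groups came from the labels. Each comparison was fitted on its own groups with the quasi-likelihood test of edgeR 4.0.16 in R 4.3.3, with TMM scaling, filterByExpr at a minimum count of 10 and Benjamini-Hochberg adjustment over all genes tested; an adjusted p under 0.05 was a call. The test was also run on simulated data, and as that outcome is not given here, no result rests on it. Named genes were the 6 catalytic subunits, in the heat comparisons, the comparison of controls and the interactions the called genes (at most the 10 with the largest changes), every gene called with an absolute log2 fold change over 1, and every gene that failed the filter; any other gene was picked with its values in view, so chosen after they were seen. The proteasome genes and the lists were chosen with earlier results of these data known. 4 genes of the lists and 1 promoter pattern are not reported here, for a reason unrelated to their values, and the counts given are without them. Alternatives were DESeq2 1.42.0, RLE size factors, library totals alone, no filter, at least 10 counts in every library, a replicate block, all groups in 1 fit, a 2-fold limit, and each library left out. Replicate numbers come from the labels; deviations from group means correlated over 0.1 in every same-numbered pair (0.146 to 0.572) of the 9 comparisons within a spheroid type other than SAS HT against control, and there the numbers were taken to pair the libraries; the main fit, set beforehand, has no block, and the blocked counts are given beside it. Promoters and their coordinates came from RefSeq, GRCh38.p14.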

Additional observations from a re-analysis of the deposited data

Results flagged for a closer look

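The heat change of PSMD12, a scaffold subunit of the 19S lid, differed between the spheroid types by a test of the difference itself: the log2 difference, FaDu minus SAS, was -0.46 for HT and -0.57 for heat in irradiated spheroids. For PSMD10, the 19S chaperone gankyrin, it was -0.37 in irradiated spheroids, and that call ended under several settings. Outside the protein-coding genes, PSMA3-AS1, antisense to PSMA3, was higher in SAS HT + RT than in control by a log2 fold change of 0.33 (edgeR adjusted p = 0.0229). It was short of the threshold in SAS HT (0.28, 0.0515) and SAS HT + RT against RT (0.20, 0.0567), and in FaDu it was at -0.11 in HT + RT against control (0.581). Its reads cannot be told apart from those of PSMA3 here, as the strand setting is not given.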

How the results depend on the processing

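Over 90 fits that left out 1 library each and the other settings apart from the 2-fold limit, 1389 of 1453 values of named genes kept their direction and side of the threshold, 52 no longer passed it, 12 newly passed it and 0 changed direction while called. The count of genes called moved by over 1.5 times as follows, and smaller moves are given for some settings only; where no value shows it, the cause was not tested. Library totals alone gave 4 in FaDu HT against control (3385 of 15879 genes in all). In that setting FaDu HT + RT gave 6 against RT (3815 of 15905) and 7 against control (3923 of 15896). DESeq2 gave 1 in SAS HT against control (3251 of 19166 genes in all) and 1 in the interaction for irradiated spheroids (1460 of 18243). In that interaction RLE size factors and at least 10 counts in every library also gave 1 (1264 of 17376 and 1093 of 12621). At least 10 counts gave 5 in SAS HT against control (3078 of 13606 genes in all). All groups in 1 fit gave 7 in SAS HT against control (4084 of 15833 genes in all) and 7 in SAS HT + RT against control (4181 of 15833). The 2-fold limit gave 0 in all heat comparisons and both interactions and 5 between controls. The replicate block gave 11 in FaDu HT against control, 6 in FaDu and 14 in SAS HT + RT against RT, and 5 in FaDu and 10 in SAS HT + RT against control. SAS HT against control (correlations 0.025 to 0.181), the controls (-0.018 to 0.098) and the SAS libraries of the interactions (-0.001 to 0.103 and 0.091 to 0.17) did not pass this check, while the FaDu libraries of the interactions did (0.177 to 0.377 and 0.132 to 0.346). The block gave 7 in SAS HT against control (4413 of 15000 genes in all), 37 between controls (11844 of 15810), and 2 and 3 in the interactions, where it added PSME4. Where only RT differed, with or without HT before it, the block called 0 proteasome genes in both types, but over all genes it raised the calls from 5 to 312 in FaDu and 11 to 288 in SAS for RT against control, and from 0 to 154 and 0 to 139 after HT; proteasome genes with an unadjusted p under 0.05 went from 1 to 7 in FaDu and 1 to 6 in SAS after HT (all genes: 2.24 to 9.01% and 4.39 to 9.93%), and from 1 to 2 in SAS RT against control (5.68 to 11.8%). Removing all FaDu libraries numbered 1, chosen after seeing the data, gave 9 in HT against control, 5 in HT + RT against RT and 8 in HT + RT against control. It gave 2 in the interaction for HT (1167 of 17766 genes in all) and 3 in that for irradiated spheroids (1579 of 17999). Between controls it gave 35 (12208 of 16318). For RT without or with HT before it the count was 0 (194 of 16062 and 41 of 16447). Without 1 library at a time the counts ranged from 1 to 3 in FaDu HT against control, 1 to 2 in SAS HT against control, 1 to 4 in FaDu and 2 to 4 in SAS HT + RT against RT, 1 to 3 in FaDu and 0 to 3 in SAS HT + RT against control, 34 to 35 between controls, and 1 to 2 and 1 to 3 in the interactions; RT against control stayed at 0, as did HT + RT against HT. Over all genes, these fits without 1 library called 1453 to 3258 in FaDu HT against control and 2719 to 3250 in SAS HT against control. For HT + RT against RT they called 1574 to 3438 in FaDu and 3419 to 3812 in SAS. The summed level per kilobase in controls, 2041 CPM in FaDu and 2147 CPM in SAS, was 3243 and 3378 per kilobase of the longest transcript, and 2226 in FaDu on library totals alone.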
